A study of Mus musculus with 2 samples.

Results

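Retnla and Retnlg, 2 of the 32285 genes counted, were followed through immune cells of osteosarcoma xenografts. They were picked by symbol among the 4 resistin family genes, with their levels in these libraries already known, so every value here describes the libraries and none is a test. The tumors were grown from 143B, an established line of human osteosarcoma cells, under the skin of nude mice, which the methods give as young females and which lack mature T cells in both groups. One group received a control IgG (control IgG) and the other an antibody to CD3L1 (anti-CD3L1). Tumors were broken up, cells were taken with magnetic beads against CD45, a surface protein of white blood cells, and 1 droplet library was made per group from a set of 3 tumors. Which cell came from which tumor is not recorded, so a difference between the groups has no replicate check.

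Resistin-like molecules are small secreted proteins rich in cysteine. Retnla encodes RELM alpha, also called FIZZ1, which macrophages of mice are known to make when IL-4 or IL-13 act through the receptor subunit IL-4Ra and the factor STAT6, and which serves as a marker of alternatively activated macrophages. Retnlg encodes RELM gamma, a product of mouse bone marrow granulocytes and of mature neutrophils. Of the other members, Retn encodes resistin, a product of fat cells in mice, and Retnlb encodes RELM beta, a product of intestinal goblet cells.

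In GRCm38, the build of the annotation used here (GENCODE M21), both genes are protein coding, have 4 exons and lie on the plus strand of chromosome 16. Retnla (ENSMUSG00000061100) spans chr16:48842551-48844461 and Retnlg (ENSMUSG00000022651) spans chr16:48872621-48874496, with 28159 bases between them. Retnlb lies on the same chromosome at chr16:48816856-48818892. The Retnla transcript of 599 bases and the Retnlg transcript of 593 bases were identical at 85.6% of 585 aligned bases, and the longest run they shared was 49 bases. Reads that fall in such a run cannot be given to 1 of the genes, and the part of lost or misassigned reads was not tested.

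The DNA before each gene is shown because the pair resembles one another there while the genes were found in different cells. Capitals mark matches, on either strand, to TTC and GAA with any 4 bases between, the spacing that STAT6 is known to bind, and to TTGCNNAA, a form of the C/EBP site.
Retnla, GRCm38.p6 from RefSeq, chr16:48842359-48842550, plus strand, 192 bases that end at the first annotated base: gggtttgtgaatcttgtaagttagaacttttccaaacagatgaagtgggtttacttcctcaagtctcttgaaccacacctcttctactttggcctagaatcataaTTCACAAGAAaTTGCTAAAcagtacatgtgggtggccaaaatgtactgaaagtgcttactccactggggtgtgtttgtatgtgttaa
Retnlg, GRCm38.p6 from RefSeq, chr16:48872358-48872607, plus strand, 250 bases that end at the RefSeq start: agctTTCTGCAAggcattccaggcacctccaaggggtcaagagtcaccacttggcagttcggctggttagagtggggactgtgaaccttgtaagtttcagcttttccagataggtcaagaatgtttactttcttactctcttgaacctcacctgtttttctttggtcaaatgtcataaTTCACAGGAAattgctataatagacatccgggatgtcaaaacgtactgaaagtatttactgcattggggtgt
The 300-base entries of the pair aligned over 225 bases with 79.1% of them identical. Each window had 1 match to the STAT6 form, TTCACAAGAA in Retnla and TTCACAGGAA in Retnlg, and 6.95% of the 32851 promoter entries of 300 bases held such a match. Counted from 1 at the first T of that match, the next 18 bases of Retnlg differed from those of Retnla by A7G and A18T. The C/EBP form just after the match, TTGCTAAA, was found in Retnla, whereas Retnlg had its match of that form at another place, and 10.8% of entries held one. These are matches of letters and no binding was measured.

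RNA molecules were counted by unique molecular identifiers (UMIs). Barcodes with at least 500 UMIs, over 200 and under 6000 genes and under 5% mitochondrial UMIs were kept as cells, 8557 for control IgG and 11269 for anti-CD3L1, with medians of 5526 and 8267 UMIs. The level of a gene is its UMIs scaled to a total of 1000000 UMIs of the same cells (CPM), and all intervals are 95% intervals that cover counting error only. Cells were clustered after integration, with the resistin family and IL-4/IL-13 genes kept out of the clustering genes, and clusters were named from marker lists. Neutrophil-like cells, in clusters 0 and 6, were 5757 of the control IgG cells (67.3%) and 593 of the anti-CD3L1 cells (5.26%), and macrophage-like cells numbered 960 and 4336. Cluster 4, led by Gm26917 with few UMIs per cell, and cluster 8, led by Slc9b2, Ctsk and the cell cycle gene Birc5, stayed unnamed. Ptprc, which encodes CD45, was detected in 95.1% and 91.1% of cells, and Cd3e, a T cell gene, had 22 and 46 UMIs. The libraries shared 26 cell barcodes.

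Retnlg was far more abundant than Retnla and sat in neutrophil-like cells. The control IgG library held 183690 Retnlg UMIs, or 2730 CPM (2717-2742), and the anti-CD3L1 library 6771 UMIs, or 69.2 CPM (67.5-70.8). The level over all cells was 39.5-fold lower (38.5-40.4) in the anti-CD3L1 library. Of the 8109 genes that reached 10 CPM in either library, 6.66% were at least 2-fold lower over all cells, and 19, Retnlg among them, were as far lower. Neutrophil-like cells held 94.9% of the Retnlg UMIs for control IgG and 74.9% for anti-CD3L1.

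Within neutrophil-like cells the difference was much smaller. Retnlg stood at 5607 CPM (5581-5633) for control IgG and 3963 CPM (3855-4073) for anti-CD3L1, ranking 15th and 16th among all genes by level. The level was 1.41-fold lower (1.38-1.46) in the anti-CD3L1 library, short of the 2-fold mark that 3.53% of 5716 genes passed downward in these cells. Subtracting the mean Retnlg UMIs per NK-like cell of the same library, 5.85 and 0.0671, left 4524 and 3932 CPM, a log2 ratio of -0.20 in place of -0.50. In control IgG NK-like cells the median was 0 Retnlg UMIs and the highest cell held 238, so that mean is not an amount found in each cell. They were also deeper than neutrophil-like cells, with a median of 9576 UMIs. Neutrophil-like cells were shallower in the anti-CD3L1 library, with a median of 1949 UMIs against 4433. A Retnlg UMI was found in 82.6% and 62.1% of neutrophil-like cells, and in 69.7% (68.4-70.9) and 56.2% (51.8-60.6) after each cell was thinned to 1000 UMIs.

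**Figure D1:**
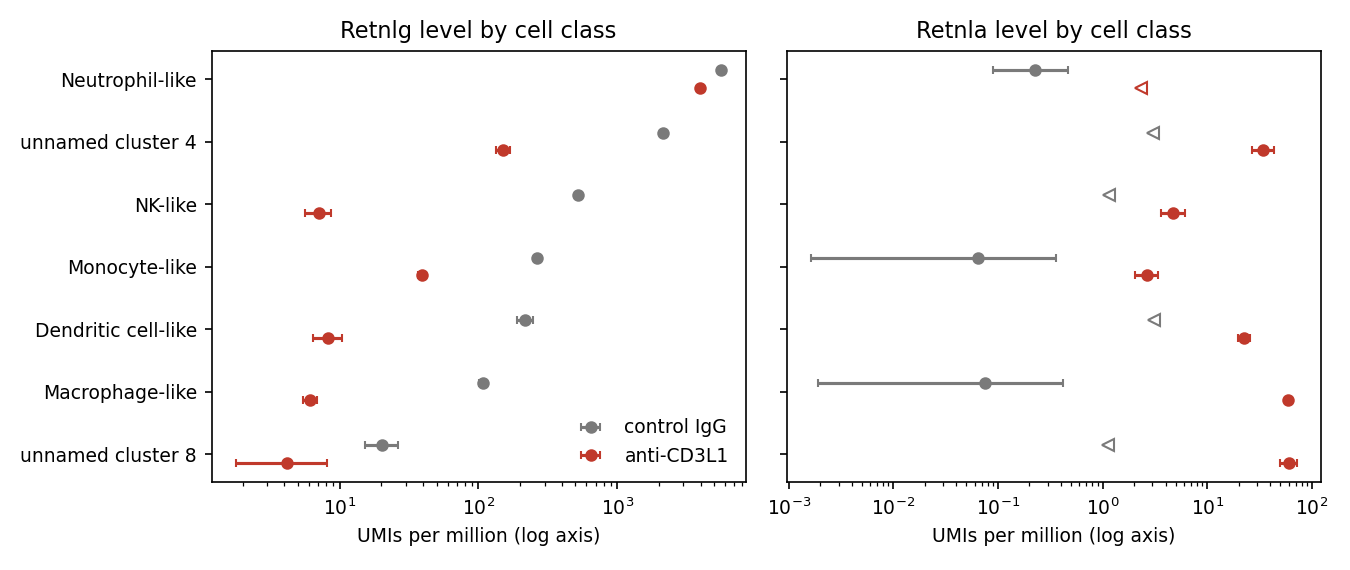
Level of Retnlg (left) and Retnla (right) in CPM on log axes, by cell class of at least 50 cells per library, for control IgG (grey) and anti-CD3L1 (red). Bars are 95% counting intervals, smaller than the point where not seen, and open triangles mark the limit that 3 counts set where none was found. Neutrophil-like cells hold the highest Retnlg level of both libraries (5607 and 3963 CPM), and macrophage-like cells (59.5 CPM) and cluster 8 (60.0 CPM) the highest Retnla levels.

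Single neutrophil-like cells differed widely. In the control IgG library the 25th percentile was 1 Retnlg UMI, the median 10, the 75th percentile 36 and the highest cell 645. Under anti-CD3L1 the 25th percentile was 0, the median 1, the 75th percentile 8 and the highest cell 251. At 1000 UMIs per cell, 30.3% of control IgG cells and 43.8% of anti-CD3L1 cells had none, while 7.05% and 4.16% had 16 to 31. The distributions of the libraries overlapped over nearly their whole range.

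**Figure D2:**
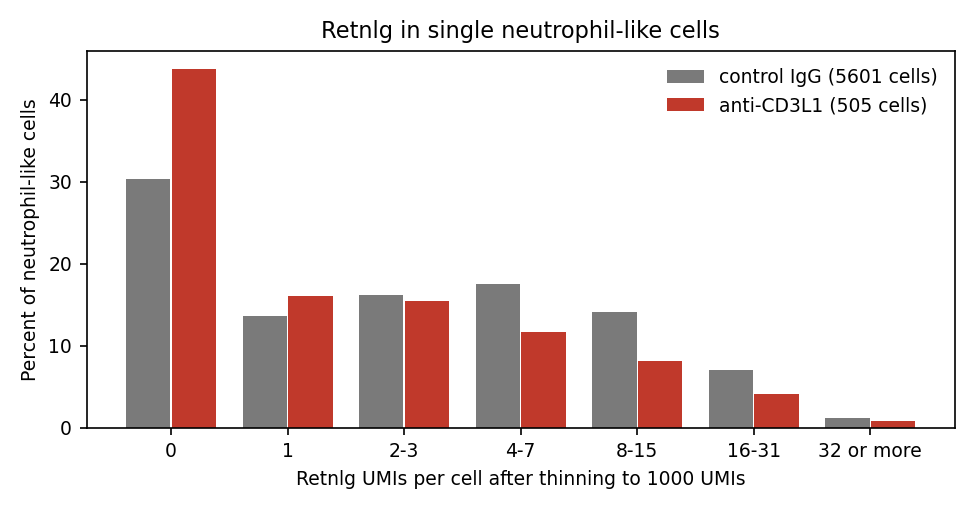
Percent of neutrophil-like cells (vertical axis) by Retnlg UMIs per cell after thinning to 1000 UMIs (horizontal axis), for control IgG (grey, 5601 cells) and anti-CD3L1 (red, 505 cells). Cells with none are 30.3% and 43.8%, and both libraries reach 32 or more UMIs.

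The level also differed between the neutrophil-like clusters. Cluster 6, led by interferon-induced genes such as Ifit1, Slfn4 and Isg20, had 2501 CPM of Retnlg against 5807 CPM in cluster 0 of the control IgG library, a 2.32-fold difference (2.26-2.39). Under anti-CD3L1 the values were 969 CPM, from only 31 cells, and 4164 CPM, a 4.30-fold difference (3.44-5.44). Those 31 cells had a median of 0 Retnlg UMIs and 1 of them held 29 of the 78, so that interval understates the spread. Retnlg was itself the leading gene of cluster 0, by fold over the other clusters, although it was kept out of the clustering genes.

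Retnlg went with some neutrophil genes and not with others. In neutrophil-like cells thinned to 1000 UMIs, the gene with the highest correlation was S100a8, which encodes a subunit of calprotectin (Pearson r = 0.47 over 5601 control IgG cells and 0.54 over 505 anti-CD3L1 cells). S100a9, the other subunit, followed with 0.42 in both, then S100a6 with 0.42 and 0.41. The interferon-inducible gene Ifitm6 and Pglyrp1, a granule protein that binds peptidoglycan, were also among the 10 highest in both libraries. Mmp8, neutrophil collagenase, reached 0.26 and 0.41, and Ly6g, the surface marker of mouse neutrophils, 0.26 and 0.23. Of the other granule genes, Lcn2, Camp and Ltf stood near 0 in the control IgG library, at -0.01, 0.02 and 0.03. Ngp reached 0.16 there and Mmp9 0.10. In the anti-CD3L1 library Lcn2 was at 0.24, Ltf at 0.18, Ngp at 0.17, Camp at 0.08 and Mmp9 at 0.07. The lowest values of the control IgG library were those of the chemokine genes Cxcl2 and Ccl3, both at -0.21. These correlations are across cells of 1 library, which share its free RNA.

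Taking the ends of that range, 1442 control IgG cells with at least 7 Retnlg UMIs per 1000 were set beside 1699 cells with none. S100a8 had a mean of 92.3 UMIs per 1000 against 40.9, and Ly6g was detected in 15.7% against 1.47%. The secondary granule gene Ngp was detected in 14.5% against 1.29%, and the granule genes Mpo, Elane and Ctsg of early precursors were not detected in either set. Cxcl2 went the other way, with means of 17.9 and 35.4, as did the cytokine gene Tnf, with 0.315 and 0.874 (Cxcl2 and Tnf were chosen after their values were seen). In the anti-CD3L1 library, 155 cells with at least 3 Retnlg UMIs had means of 45.6 for S100a8 and 9.01 for Cxcl2, against 18.6 and 16.4 in 221 cells with none. Retn, the resistin gene, had an r of 0.02 and -0.02 with Retnlg across these cells.

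Outside neutrophil-like cells, Retnlg was lower in every class, and in each of them lower in the anti-CD3L1 library. In the control IgG library the level was 521 CPM in NK-like, 263 CPM in monocyte-like, 218 CPM in dendritic cell-like and 107 CPM in macrophage-like cells. The same classes of the anti-CD3L1 library stood at 7.05, 39.3, 8.18 and 6.13 CPM. The shallow cluster 4 had 2143 and 151 CPM, and fibroblast-like cells 1388 CPM in 24 control IgG cells and 2.10 CPM in 99 anti-CD3L1 cells. Droplets with under 100 UMIs, which hold RNA of no cell, carried 2058 CPM of Retnlg for control IgG and 57.4 CPM for anti-CD3L1. The classes differed between the libraries by unequal factors, 6.68-fold in monocyte-like, 17.5-fold in macrophage-like and 73.9-fold in NK-like cells, and the part of free RNA in them was not tested. A Retnlg UMI was found in 31.6% of control IgG NK-like cells, a class not known to make it, and in 30.7% of macrophage-like cells. Median depths were 9576 and 13580 UMIs, and with cells thinned to the same depth the shares were 13.7% and 5.75%. Whether the share in macrophage-like cells is background was not tested.

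Set against the calprotectin genes, Retnlg lay between 1.86 and 4.20 UMIs per 100 UMIs of S100a8 and S100a9 together in all classes of the control IgG library. It had 3.29 in neutrophil-like cells, 2.89 in droplets, 2.68 in macrophage-like, 2.22 in monocyte-like and 4.20 in NK-like cells. The anti-CD3L1 library had 4.31, 3.64, 5.39, 3.47 and 5.76 in the same order. The intervals of these ratios did not all overlap, as with 2.16-2.29 in monocyte-like and 3.28-3.31 in neutrophil-like cells under control IgG. Over 16 sums of class and library, the levels most like Retnlg were those of S100a9 (Pearson r = 0.99 on log2(CPM + 1)), S100a8, Chil1, Cxcr2 and Prok2.

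Retnla was found in very few cells. In the control IgG library 3 of 8557 cells held it (0.0351%, 0.00723-0.102), with 9 UMIs in all, or 0.134 CPM (0.0612-0.254). In the anti-CD3L1 library 149 of 11269 cells held it (1.32%, 1.12-1.55), with 3168 UMIs, or 32.4 CPM (31.2-33.5). The share of cells was 37.7-fold higher (12.7-185) in the anti-CD3L1 library. With cells thinned to 1000 UMIs it was 0.0239% and 0.484%, and with at least 2 UMIs asked for, 0.0117% and 0.63%. The CPM was 242-fold higher (127-530). Of the 8109 genes, 21.9% were at least 2-fold higher over all cells, and 4, with Retnla, were as far higher once 1 CPM was added to each value.

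The UMIs were bunched in single cells, so intervals on UMIs understate the spread. One macrophage-like cell of the anti-CD3L1 library held 749 UMIs, or 23.6% of them, the next cells held 240 and 214, and 6 cells held 50% of them. Of the 149 cells, 78 had 1 UMI and together 2.46% of the UMIs, 50 had at least 5, and 7 had at least 100. Without the cell of most Retnla in each library, the log2 ratio moved from 7.92 to 9.70, since 1 cell held 7 of the 9 control IgG UMIs.

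**Figure D3:**
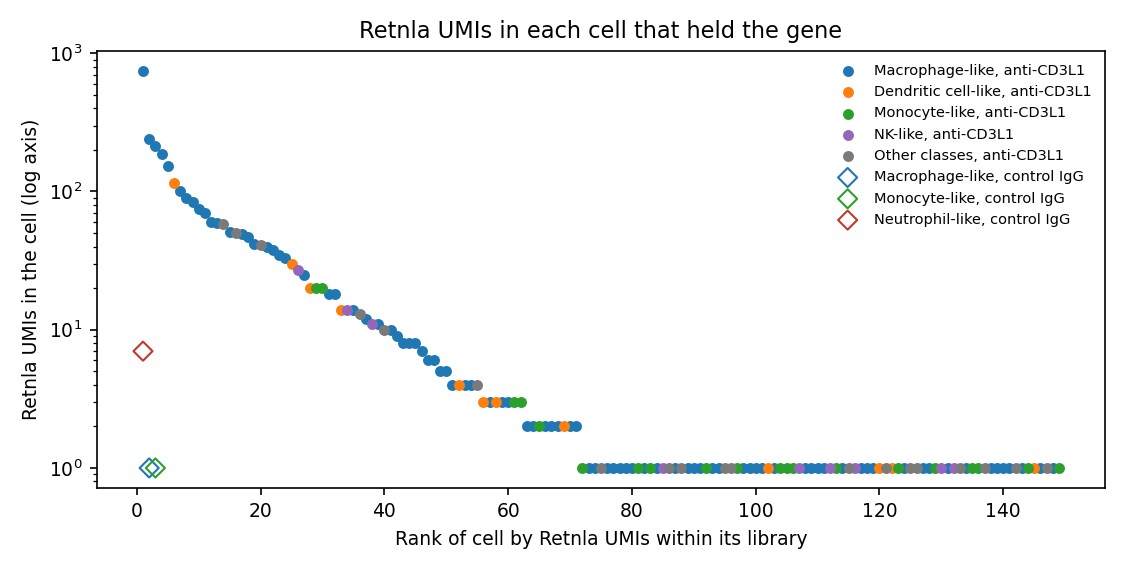
Retnla UMIs in each cell that held the gene (vertical, log axis) against the rank of the cell in its library (horizontal), coloured by class, with filled circles for anti-CD3L1 (149 cells) and open diamonds for control IgG (3 cells). The series for anti-CD3L1 runs from 749 UMIs down to 78 cells with 1 UMI, and the control IgG cells held 7, 1 and 1.

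The 3 control IgG cells belonged to 3 classes. The cell with 7 Retnla UMIs was neutrophil-like and held 8 Retnlg, 130 S100a8 and 249 S100a9 UMIs and none of C1qa, C1qb and C1qc. The macrophage-like cell held 1 Retnla UMI with 17 C1qa and 213 Apoe UMIs, and the monocyte-like cell 1 with 6 Ly6c2 and 3 Ccr2 UMIs.

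In the anti-CD3L1 library, macrophage-like cells held 2662 of the 3168 Retnla UMIs (84.0%), in 89 of 4336 cells (2.05%, 1.65-2.52), or 59.5 CPM. Their share of cells with Retnla was 19.7-fold that of the control IgG library (3.45-787), where 1 of 960 macrophage-like cells held it at a higher median depth, 13580 against 9854 UMIs. In macrophage-like cells 2.85% of 7747 genes were at least 2-fold higher, and none but Retnla was as far higher. With Retnla and the other listed genes among the clustering genes, 67.0% of the UMIs were in macrophage-like and 18.7% in monocyte-like cells. At a resolution of 0.5, macrophage-like cells held 56.6% and a cluster that lost its name, with 3 of 8 macrophage markers, 25.1%.

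Other classes held fewer Retnla UMIs, but cluster 8 was not lower by share of cells or by level. It had 116 UMIs in 7 of 107 cells. That is 6.54% of its cells and 60.0 CPM, beside 2.05% and 59.5 CPM in macrophage-like cells, though from only 7 cells. Fibroblast-like cells were also not lower by share, with Retnla in 3 of 99 cells (3.03%), but stood at 2.10 CPM. Each of those 3 cells had 1 UMI, and their median depth was 29813 UMIs. Dendritic cell-like cells had 196 UMIs in 12 of 738 cells and cluster 4 had 70 in 9 of 870 (34.5 CPM). Monocyte-like cells had 63 in 20 of 2995 and NK-like cells 58 in 9 of 1282. No neutrophil-like cell of the anti-CD3L1 library had a UMI, 0 of 593 at a median depth of 1949 UMIs. That allows a share of up to 0.506%. None of the 249 plasmacytoid dendritic cell-like cells of that library had a Retnla UMI either, which allows up to 1.20%. NK-like cells, not known to make Retnla, held it in 0.702% of cells at a median depth of 8446 UMIs, and monocyte-like cells in 0.668% at 7594 UMIs. With cells thinned to the same depth, the shares were 0.157% in NK-like and 0.201% in monocyte-like cells. Of 505 neutrophil-like cells thinned in this way, 0 held Retnla, with an interval up to 0.728%. That interval includes both shares, so the 0 does not place neutrophil-like cells below NK-like or monocyte-like cells. Of the 20 monocyte-like cells with Retnla, 15 had 1 UMI and 2 had at least 5, with 20 UMIs at most. Droplets under 100 UMIs carried 19.2 CPM of Retnla. In the 9 NK-like cells with Retnla, macrophage markers reached 2634 CPM against 1330 CPM in the other NK-like cells, and NK markers 1726 against 3213 CPM. Of the 149 cells with Retnla, 24 were among the 1270 cells of highest doublet score, which were 11.3% of all cells of that library.

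The macrophage-like cells with most Retnla differed in their other genes. The cell with 214 Retnla UMIs held 160 C1qa, 424 Apoe, 32 Folr2 and 17 Cd163 UMIs and none of Ccr2, the receptor of blood monocytes. The cell with 187 held 1 C1qa and 1 Apoe UMI with 22 of Ccr2 and 26 of Mrc1. The cell with 749 stood between them, with 8 C1qa, 47 Apoe, 12 Folr2, 11 Ccr2 and 13 Clec10a UMIs. The cell with 240 held 18 C1qa, 5 Apoe and 15 Ccr2 UMIs, and the cell with 154 held 98 C1qa, 9 Apoe and 2 Ccr2 UMIs. Neither of these held Cd163. Among the cells described, only that with 214 had no Ccr2 UMI.

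Among the anti-CD3L1 macrophage-like cells, the 89 with Retnla were compared with 4247 without it. Median depths were 12355 and 9810 UMIs, Retnla itself was left out of the totals, and of 7891 genes with at least 10 CPM on a side 4.36% were at least 2-fold higher and 1.71% at least 2-fold lower in the cells with Retnla. The macrophage markers C1qa, C1qb, C1qc and Adgre1 were at nearly the same level, with ratios of 1.13, 1.05, 1.06 and 1.02. Ms4a7 was at 592 against 1191 CPM, Apoe, a lipid carrier, at 9798 against 13288 CPM and Trem2 at 247 against 372 CPM. In the 36 cells with at least 5 Retnla UMIs, Ms4a7, Apoe and Trem2 had ratios of 0.21, 0.62 and 0.52. C1qa had 1.17 there.

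Genes of tissue-resident macrophages, a list chosen with these data known, were higher in cells with Retnla. All 8 were at least 2-fold higher, with a median log2 ratio of 2.27 beside 0.03 over all genes compared (log2 of CPM + 1). Cd163, the scavenger receptor for haptoglobin-hemoglobin, was at 69.8 against 2.41 CPM (29.0-fold, 21.3-39.2), with UMIs in 13 of the 89 cells. Lyve1, a hyaluronan receptor, was at 50.1 against 5.64 CPM and Fcna, ficolin A, at 76.0 against 7.22 CPM. Folr2, folate receptor beta, was at 375 against 117 CPM (3.19-fold, 2.88-3.53). Cbr2, F13a1 and Timd4 had ratios of 5.82, 3.45 and 5.16. Not all of the list is particular to macrophage-like cells in this library. Among cells without Retnla, F13a1 was at 259 CPM in monocyte-like and 141 CPM in macrophage-like cells. Timd4 was detected in 38.9% of dendritic cell-like and 2.10% of macrophage-like cells. Pf4 was at 2.03-fold, at 1.98-fold without the cell of most Retnla and at 1.81-fold in the 36 cells with at least 5 Retnla UMIs.

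The rule for the largest ratios named Cd163, Cd226, Lyz1, Lrg1, Cd5l, Thrb, Serpinb1a, Fcna and Cd2. Cd226, an adhesion receptor of NK and T cells that serous cavity macrophages also carry, was at 28.6 against 0.78 CPM (36.7-fold, 21.9-61.3). Lyz1, a lysozyme gene, was at 566 against 40.5 CPM, in 29 of the 89 cells. Cd5l, a secreted product of resident macrophages, was at 41.1 against 3.0 CPM. Of the other serous cavity genes, Gata6 had no UMI in either set. Prg4 had none in cells with Retnla and 10 in the others, and Alox15 had 1 and 5, too few to compare. Garnl3 had 2 and 112 UMIs, a ratio of 0.70 (0.0833-2.57). These genes were not detected in most cells with Retnla, the highest share among those named being 32.6% for Lyz1.

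**Figure D4:**
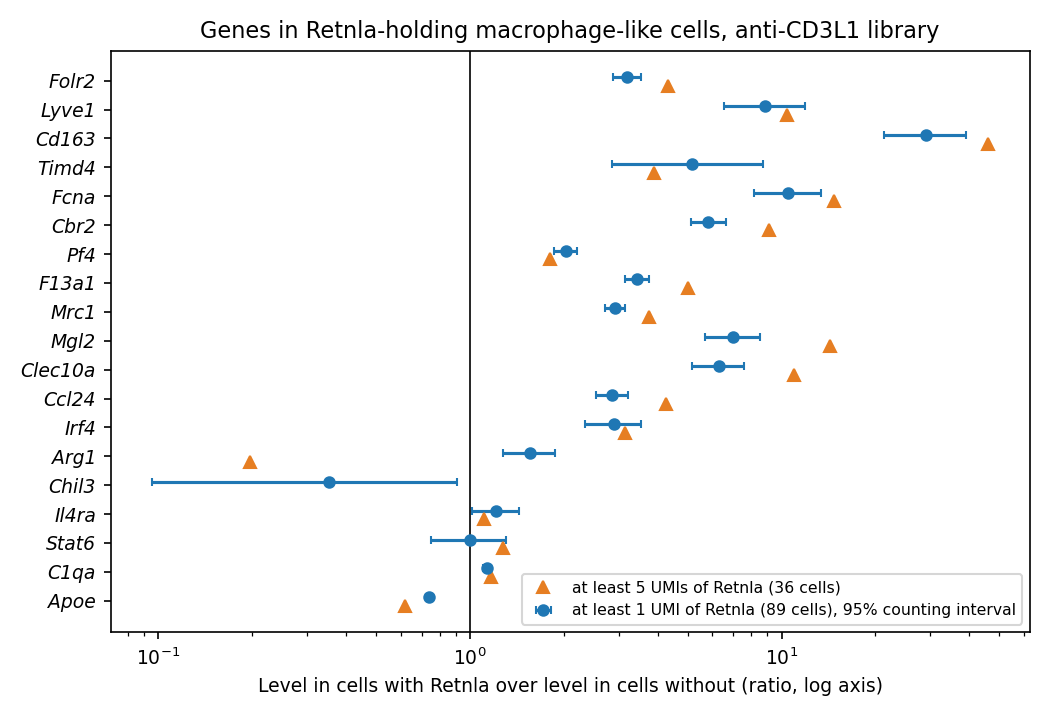
Ratio of the level in macrophage-like cells with Retnla to that in macrophage-like cells without it (horizontal, log axis), anti-CD3L1 library, for genes of the resident macrophage list, the IL-4/IL-13 axis and the macrophage markers. Circles are the 89 cells with at least 1 UMI, with 95% counting intervals, and triangles the 36 cells with at least 5 UMIs. Cd163 lies farthest to the right (29.0), C1qa near 1, and Chil3 has no triangle because no UMI was found there.

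The genes of the IL-4/IL-13 axis are given by role. The ligand gene Il4 had 5 UMIs in macrophage-like cells, none of them in cells with Retnla, and Il13 had none. The receptor genes Il4ra, Il13ra1 and Il2rg had ratios of 1.21, 1.02 and 1.15. The transducers Jak1, Jak3, Tyk2 and Stat6 had ratios of 1.29, 1.36, 1.32 and 0.999. Of these genes 0 of 7 passed 2-fold, too few genes to set apart from the 4.36% higher and 1.71% lower among all genes compared. Of 14 target genes, 11 had enough counts, 5 were at least 2-fold higher and 1 was lower, with a median log2 ratio of 0.63. The higher ones were the lectin genes Mrc1 (734 against 251 CPM, 2.92-fold), Mgl2 (103 against 14.7 CPM) and Clec10a (114 against 18.1 CPM), the eosinophil chemokine gene Ccl24 (273 against 95.2 CPM) and the factor gene Irf4 (89.4 against 30.9 CPM). Chil3, which encodes Ym1, was lower (3.58 against 10.1 CPM), and Arg1, arginase 1, was at 103 against 66.0 CPM. In the 36 cells with at least 5 Retnla UMIs, the ratio of Mgl2 was 14.3 and that of Arg1 0.20, the reverse of its value over the 89 cells.

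Of the C/EBP genes, Cebpe was higher in cells with Retnla (26.8 against 8.12 CPM, 3.30-fold, 2.20-4.8). Cebpa, Cebpb and Cebpd had ratios of 0.88, 0.79 and 0.92. Of 8 eosinophil genes, 1 had enough counts, the ribonuclease gene Ear2, and it was higher (86.7 against 15.5 CPM). Epx, Prg2, Il5ra, Ear1 and Ear6 had no UMI in the 89 cells and at most 6 in the other 4247, too few to compare. Of 18 neutrophil genes, 5 had enough counts and 2 were at least 2-fold higher, S100a8 (123 against 45.9 CPM) and S100a9 (169 against 63.3 CPM), with 83.3% and 87.8% of their UMIs in 1 cell. Il1b, the interleukin 1 beta gene, was at 1193 against 1632 CPM.

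Between the libraries, the same axis differed by gene in macrophage-like cells. Il4ra was at 122 and 100 CPM and Stat6 at 52.6 and 49.2 CPM in the control IgG and anti-CD3L1 libraries. Mgl2 was at 0.909 and 16.9 CPM (18.6-fold, 10.6-36.2), Ccl24 at 8.41 and 99.7 CPM (11.9-fold, 9.82-14.4) and Irf4 at 9.47 and 32.4 CPM. Mrc1 was at 225 and 263 CPM. Arg1 was lower, at 256 and 67.0 CPM, and so was Ch25h, cholesterol 25-hydroxylase, at 24.7 and 6.24 CPM. The rise of Mgl2 and Ccl24 was not confined to this class. Mgl2 was at 0.381 and 11.5 CPM in NK-like cells and 0.261 and 6.93 CPM in monocyte-like cells. Its highest level was in dendritic cell-like cells, at 49.3 and 216 CPM. Ccl24 was at 20.5 and 145 CPM in monocyte-like cells. The part of free RNA in these levels was not tested. All 15 Il13 UMIs for control IgG and all 60 for anti-CD3L1 were in NK-like cells, 5 and 19 cells. Il4 had 2 and 27 UMIs in all. Of the 27, 16 were in NK-like cells (1.31 CPM), 5 in macrophage-like cells (0.112 CPM) and 5 in 3 neutrophil-like cells (3.91 CPM).

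Macrophage-like cells that held a partner gene existed in the control IgG library without Retnla. Folr2 was detected in 226 of its macrophage-like cells and none held Retnla (0%, which allows up to 1.33%), while 52 of 1660 such cells did in the anti-CD3L1 library (3.13%, 2.35-4.09). Mrc1 was detected in 475 cells, 1 with Retnla, and in 2531 cells, 78 with Retnla (3.08%, 2.44-3.83). Cd163 was detected in 14 control IgG cells, none with Retnla, which allows up to 21.4%, and in 58 anti-CD3L1 cells, 13 with Retnla (22.4%, 12.5-35.3). These intervals cover counting over the cells of 1 library each and are no test between the groups, and the part of free Retnla RNA in the shares was not tested. The partner genes were picked with their values seen and were higher in anti-CD3L1 cells with Retnla. Their shares in that library restate that comparison and add no support to it. Mgl2 was detected in 6 cells, none with Retnla, and in 227 cells, 28 with Retnla.

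**Figure D5:**
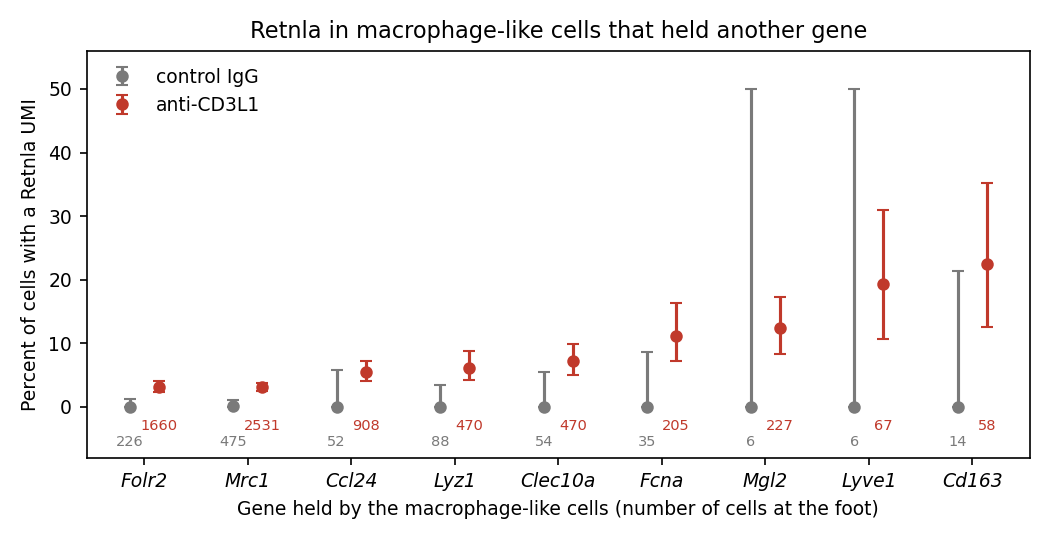
Percent of macrophage-like cells with a Retnla UMI among those that held the named gene (vertical axis, with 95% exact binomial intervals or, at 0, the limit that 3 counts set), for control IgG (grey) and anti-CD3L1 (red), with the number of cells at the foot. Control IgG points lie at 0 except Mrc1 (1 of 475 cells), with long bars for Cd163, Lyve1 and Mgl2, where 14, 6 and 6 control IgG cells could be looked at, and anti-CD3L1 points run from 3.08% for Mrc1 to 22.4% for Cd163.

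In dendritic cell-like cells the 12 cells with Retnla shared some partners with macrophage-like cells. Fcrls was at 443 against 7.55 CPM in the other 726 cells, in 9 of the 12, and in macrophage-like cells Retnla was found in 4.86% of those with Fcrls and 1.45% of those without. Mrc1 was at 505 against 73.6 CPM, Mgl2 at 686 against 205 CPM, Irf4 at 200 against 57.9 CPM and Cd226 at 162 against 29.5 CPM. Clec10a, higher with Retnla in macrophage-like cells, was at 23.8 against 110 CPM. The markers of the class were lower, at 343 against 1307 CPM. Median depths were 17378 UMIs in the 12 cells and 10624 in the others. Some of these partners were also higher in the 9 NK-like cells with Retnla than in other NK-like cells. There Fcrls was at 138 against 2.90 CPM, Mrc1 at 124 against 23.3 CPM and Mgl2 at 110 against 10.3 CPM. These levels rest on 20 UMIs in 3 cells, 18 in 3 and 16 in 2, in the same order. Cd226 was at 20.6 against 33.7 CPM, from 3 UMIs, and its ratio of 0.61 has an interval of 0.126-1.80 that includes 1. In the 20 monocyte-like cells with Retnla the partners were mixed. Mrc1 was at 270 against 124 CPM and Clec10a at 46.8 against 14.6 CPM. Ccl24 was lower, at 83.1 against 146 CPM, and F13a1 stood at 249 against 259 CPM. Mgl2 had no UMI in them and 164 in the other 2975 cells, too few to compare.

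Few cells held both Retnla and Retnlg. For anti-CD3L1, 4 of the 149 cells with Retnla also held Retnlg, or 2 of the 50 with at least 5 Retnla UMIs, beside 5.46% of all its cells with Retnlg, most of them neutrophil-like. Within macrophage-like cells, Retnlg was found in 2.25% of those with Retnla and 1.55% of the others. In the control IgG library 2 of 3 did, where 65.7% of all cells held Retnlg. Over the 16 sums the genes most like Retnla were Slc39a12, Galnt9, Prdm9, 4933424G05Rik and Gm47043 (Pearson r from 0.87 to 0.81), each with at most 1146 UMIs, none of them a listed gene.

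The other family members were scarcer. Retn had 1202 UMIs in the control IgG library, 93.4% of them in neutrophil-like cells, and 111 in the anti-CD3L1 library, 36% of them there. In neutrophil-like cells Retn was at 36.1 CPM (34.1-38.3) and 31.3 CPM (22.3-42.6), a ratio whose interval of 0.615-1.19 includes 1. Retnlb had 59 UMIs, each in a cell of its own and 56 of them in neutrophil-like cells, and 3 UMIs in the anti-CD3L1 library. Those 56 cells had a median of 56.5 Retnlg UMIs against 10 in the other cells of that class and library. The Retnlb and Retnlg transcripts share a run of 26 bases, and the part of misassigned reads in these UMIs was not tested.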

How the data were processed

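Single-cell RNA was measured in 2 droplet libraries, 1 per group, each holding cells of 3 tumors. The tables that the authors deposited give UMI counts of genes in all barcodes, 1084690 barcodes and 74850604 UMIs for control IgG and 1548857 and 108246719 for anti-CD3L1. Per the submitters' processing notes these were made with Cell Ranger 7.1.0 and GRCm39, and Seurat 5.1.0 was used. The coordinates and sequences given here are of GRCm38, so no position was taken from the counts. The authors' table of macrophage comparisons (fold changes, shares of cells and p-values) was not used.

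Cells were kept by the limits given in the text and clustered with Seurat 5.3.0 in R 4.3.3 (CCA with 30 dimensions, 2000 variable genes, 10 components, resolution 0.2). A cluster was named by at least 4 markers of a type with a fold over 1.5 in over 25% of its cells, a number set after the clusters were seen. UMIs were summed per class and library with Python 3.11.15, scipy 1.17.1 and scanpy 1.11.5. Intervals at 95% were exact Poisson for CPM, exact binomial (Clopper-Pearson) for shares and exact conditional binomial for ratios. A count of 0 was given the limit of 3 counts in place of an interval. With 1 library per group there was no test. Doublets were kept. On simulated counts with 200 genes changed 4-fold, the interval held the true ratio for 194 genes over all cells, 195 in neutrophil-like and 190 in macrophage-like cells. In the same order, 200, 185 and 199 passed 2-fold. The simulated counts were Poisson draws, the form that the intervals assume, so this check does not cover UMIs bunched in single cells, as those of Retnla were.

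The members and gene lists were chosen with earlier results of these data known. Named genes were the members, all genes of the lists (resistin family, IL-4/IL-13 axis, C/EBP, neutrophil, resident and serous cavity macrophage, eosinophil), the 5 genes most like each member, the 10 largest ratios with Retnla (at least 20 UMIs and in 10% of its cells) and the 10 highest correlations with Retnlg, and 1 gene under this rule is not reported here. Genes of the dendritic cell-like, NK-like and neutrophil comparisons outside this rule, the single cells described and the partner genes shown were picked once their values had been seen. The alternatives tried concerned cell filters, doublets, scaling, clustering, detection, depth and free RNA.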

Additional observations from a re-analysis of the deposited data

Results flagged for a closer look

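Retnla was also found outside the cells kept. The 1653 barcodes of at least 500 UMIs that failed the limits on genes or mitochondrial UMIs, with a median of 9.4% mitochondrial UMIs, held 85 Retnla UMIs in 24 barcodes, or 24.2 CPM (19.3-29.9), where the 590 such barcodes of the control IgG library held none. Droplets with under 100 UMIs held 122 Retnla UMIs, or 19.2 CPM (15.9-22.9), and none in the control IgG library, which allows up to 0.68 CPM. Over all its barcodes the control IgG library held 11 Retnla UMIs, 9 of them in kept cells. The values of 24.2 and 19.2 CPM come from outside the kept cells that the levels by class rest on. The kept cells of the anti-CD3L1 library stood at 32.4 CPM.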

How the results depend on the processing

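No paired analysis was possible because each group has 1 library. No value changed direction under any alternative run. The all-cell log2 ratio of Retnlg, -5.30, was -5.38 with at least 1000 UMIs per barcode, -5.37 with at least 500 genes, -5.25 without the cells of highest Scrublet score and -5.50 in CPM without the 20 genes of most UMIs. In neutrophil-like cells it was -0.50 and became -0.55 without integration, -0.54 at resolution 0.5, -0.68 without those 20 genes and -0.20 with the mean of NK-like cells subtracted. The share of Retnlg UMIs in neutrophil-like cells of control IgG, 94.9%, was 95% with under 10% mitochondrial UMIs, 96.0% without integration, 94.1% at resolution 0.5 and 98.4% without high Scrublet scores. For anti-CD3L1, 74.9% became 72.0%, 70.6% and 86.8% under the last 3. The share of cells with Retnla in anti-CD3L1, 1.32%, was 0.63% with at least 2 UMIs and 0.484% thinned. The share of Retnla UMIs in its macrophage-like cells, 84.0%, was 56.6% at resolution 0.5, 67.0% with all variable genes, 86.4% without high Scrublet scores and, chosen after seeing the data, 79.1% without the cell of most Retnla. That last choice made the Retnla log2 ratio 9.70 and the control IgG share 50%, 1 of 2 UMIs, in place of 11.1%, 1 of 9. Leaving out the 26 shared barcodes, also added later, moved no value beyond its interval. Where no value shows it, the cause was not tested. Scrublet's own threshold called 0 and 119 cells, so the 732 and 1270 highest scores were left out. The control IgG values of Retnla rest on 9 UMIs in 3 cells.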

Other observations

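The cells that held Il13, a ligand known to induce Retnla, were a small group within the NK-like class, and their other genes were looked at after this was seen. In the anti-CD3L1 library, 18 of the 19 cells with Il13 held Gata3, 13 held Il1rl1, which encodes the IL-33 receptor, and 15 held Il7r, whereas 3 held Ncr1 and 2 held Gzma. Of the other 1263 NK-like cells, Gata3 was detected in 39.4%, Il1rl1 in 8.79%, Il7r in 20.2%, Ncr1 in 61.5% and Gzma in 55.4%. In the control IgG library all 5 cells with Il13 held Gata3, Il1rl1, Rora, Il7r and Areg, and none held Ncr1, Gzma or Eomes. Of the other 229 NK-like cells there, 48.5% held Gata3, 47.6% Rora, 21.8% Il7r, 12.2% Areg and 9.61% Il1rl1. Ncr1 was detected in 65.9% of them, Gzma in 62.0% and Eomes in 64.2%. Il5, often made by the same cells, was found in 2 of the 5 and 7 of the 19. No cell with Il13 held Cd3e. In NK-like cells Il13 was at 5.72 CPM for control IgG and 4.92 CPM for anti-CD3L1.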
